A study of Mus musculus with 12 samples.

Results

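Hepcidin and the genes that carry, store and export iron were followed in liver RNA from tumour-bearing mice kept at 3 housing temperatures. The 10 genes were taken by symbol from the count table. They include the hepcidin genes Hamp and Hamp2, their upstream regulator Bmp6, and Id1, a target of the same signalling pathway. The others are the transferrin system of Trf, Tfr2 and Tfrc, the ferritin subunits Fth1 and Ftl1, and the iron exporter Slc40a1. All 10 of the 55421 annotated genes were found, and all 10 were among the 15006 that passed the filter on low counts. Hamp ranged from 110 to 1440 CPM (counts scaled to the size of the library) between libraries, and no temperature difference in it passed the test. Fth1 was lower at 29 °C than at 6 °C by 0.50 on the log2 scale. The difference passed in edgeR with a term for the libraries holding transcripts of the gene H2-Ea-ps (adjusted p = 0.0120), where 12.6% of all tested genes passed. It did not pass without that term (adjusted p = 0.108). DESeq2 and limma voom called it without the term, beside 7.97% and 7.40% of all tested genes. Bmp6 fell by 2.13 on the log2 scale in the libraries with H2-Ea-ps transcripts relative to those without, where 22.6% of all tested genes passed. It had 13 to 45 counts in each library with these transcripts.

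All animals were wild-type mice with orthotopic mammary tumours grown from E0771 cells, a murine mammary carcinoma line, and livers were sampled at day 21. They had been acclimatised in climate chambers, under a 12 h light-dark cycle with free food and water, at 6 °C, 22 °C or 29 °C, which gave libraries 1 to 4, 5 to 8 and 9 to 12. For mice 29 °C lies near the thermoneutral zone and 6 °C is a cold load. No group was free of tumours, and age and sex are not given in the labels used here. The labels mention BALB/c and C57BL/6J hosts and assign neither to a library. They do not say that the libraries of a group came from separate animals, so the p-values rest on the spread among libraries, which may be technical.

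Total counts lay between 7615585 and 19001126 per library, so that a count of 0 allows up to 0.158 to 0.394 CPM. Transcripts of H2-Ea-ps, a class II histocompatibility gene that is silent in C57BL/6 mice, were counted in libraries 1, 7, 8 and 9 (134 to 248 counts) and were at 0 counts in the other 8. These 4 libraries are 1 of the 6 °C, 2 of the 22 °C and 1 of the 29 °C group. They were set apart from the data, not by the labels, and are not groups of the study. Whether they differ from the other 8 in host strain is not given, so a difference by H2-Ea-ps counts cannot be told apart from one by strain. Libraries 5 and 6 had the smallest share of counts on the noncoding RNA Gm26917 (0.667% and 0.605%, against 1.66% to 8.70% in the others) and the highest summed level of 7 hepatocyte markers (184175 and 179368 CPM, against 73776 to 159068 CPM). Most of these sums was Alb (152625 and 152368 CPM). Alb and Apoa1 were highest in this pair of libraries, while Ttr, Apoh, Cps1, Ass1 and Fgb were not highest in both. All 7 were detected and abundant in all libraries, as the liver label requires. Library 11 held 780.5 CPM over 14 intestinal markers, where the others held 12.6 to 40.4 CPM. In bulk RNA, fewer cells of a type and less RNA per cell cannot be told apart.

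Hepcidin is the liver's iron hormone. It is secreted by hepatocytes, binds the exporter ferroportin on gut cells and macrophages and causes its breakdown, so that high hepcidin lowers the release of iron into plasma. Its gene is driven by bone morphogenetic protein signalling through SMAD proteins, with BMP6 from sinusoidal endothelial cells as a main ligand and ID1 as a target of the same pathway, and by interleukin-6 through STAT3 in inflammation. Inside cells, iron regulatory proteins bind hairpins called iron-responsive elements in the messages for ferritin, ferroportin and transferrin receptor 1, which sets their translation or stability.

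Mice carry a pair of neighbouring hepcidin genes, and their promoters show how alike they are. The stretches from -160 to -11 of the start site (minus strand, RefSeq promoter table, GRCm38.p6) are printed because Hamp and Hamp2 were measured separately here. Capitals mark GGCGCC, the core letters of a BMP-responsive element, and TTCNNNGAA, the letters of a STAT site. Hamp lies at chr7:30944040-30944189 and Hamp2 at chr7:30924192-30924341. The Hamp2 stretch lies within the gene as GENCODE vM21 annotates it (chr7:30922372-30924681), whose 5′ end is upstream of the RefSeq start. The Hamp stretch lies upstream of its GENCODE gene (chr7:30942368-30944032).
Hamp: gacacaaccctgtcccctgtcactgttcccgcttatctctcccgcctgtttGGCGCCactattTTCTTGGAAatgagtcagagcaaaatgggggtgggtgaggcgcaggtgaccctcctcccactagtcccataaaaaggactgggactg
Hamp2: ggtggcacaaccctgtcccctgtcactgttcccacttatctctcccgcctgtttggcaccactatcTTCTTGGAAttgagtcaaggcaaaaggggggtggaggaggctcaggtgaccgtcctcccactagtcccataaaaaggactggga

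The 300-base windows around the starts of both genes were identical at 276 of 297 aligned bases (92.9%). TTCNNNGAA stands at -97 to -89 in Hamp and at -94 to -86 in Hamp2. GGCGCC stands at -109 to -104 in Hamp and is not in the Hamp2 window, where the substitution G55A (Hamp base first, counted from 1 at the 5′ end of the printed Hamp stretch) falls within it. Both motifs read alike on either strand and they did not overlap. Of 32851 promoter windows of the same length, 11.9% held GGCGCC, 8.30% held TTCNNNGAA and 0.645% held both. Of the 10 genes, 7 were in the promoter table. Among these, GGCGCC was in Hamp and Tfrc, and TTCNNNGAA in Hamp and Hamp2. A match of letters is a description and no evidence of binding.

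Iron-responsive elements tie ferritin, ferroportin and transferrin receptor 1 to each other, and their sites are printed for that reason. The pattern of an iron-responsive element (a bulged C, the loop letters CAGTG and 5 paired bases of stem, G with T allowed) was searched on the transcript strand of GENCODE vM21 messages, and 294 of 21901 coding genes held it (1.34%). Among the 10 genes it was in Fth1, Ftl1, Slc40a1 and Tfrc. The sites are given on GRCm38 with the loop in capitals: in the 5′ UTR of Fth1 (chr19:9982733-9982759, plus strand), Ftl1 (chr7:45459780-45459806, minus) and Slc40a1 (chr1:45925466-45925492, minus), and 4 times in the 3′ UTR of Tfrc, of which the first (chr16:32631220-32631246, plus) is shown.
Fth1: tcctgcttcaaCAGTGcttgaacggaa
Ftl1: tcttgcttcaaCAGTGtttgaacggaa
Slc40a1: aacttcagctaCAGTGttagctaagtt
Tfrc: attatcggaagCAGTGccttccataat

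Per kilobase of exon the transcripts covered a wide range of levels. Trf was highest, with a median of 8081 CPM per kb over the 12 libraries (6065 to 12219), and Hamp followed at 1095 (267 to 3512). Tfr2 (113, from 74.2 to 169), Fth1 (78.4, from 57.5 to 121), Hamp2 (63.9, from 36.0 to 415) and Ftl1 (55.7, from 16.6 to 71.0) came next, with ranges that overlapped from each to the next. Slc40a1 stood at 22.7 CPM per kb (17.7 to 35.5). Id1 (7.88, from 2.67 to 13.96), Tfrc (7.87, from 4.64 to 12.4) and Bmp6 (1.94, from 0.257 to 4.74) were lowest, and the ranges of Id1 and Tfrc overlapped almost entirely.

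**Figure D1:**
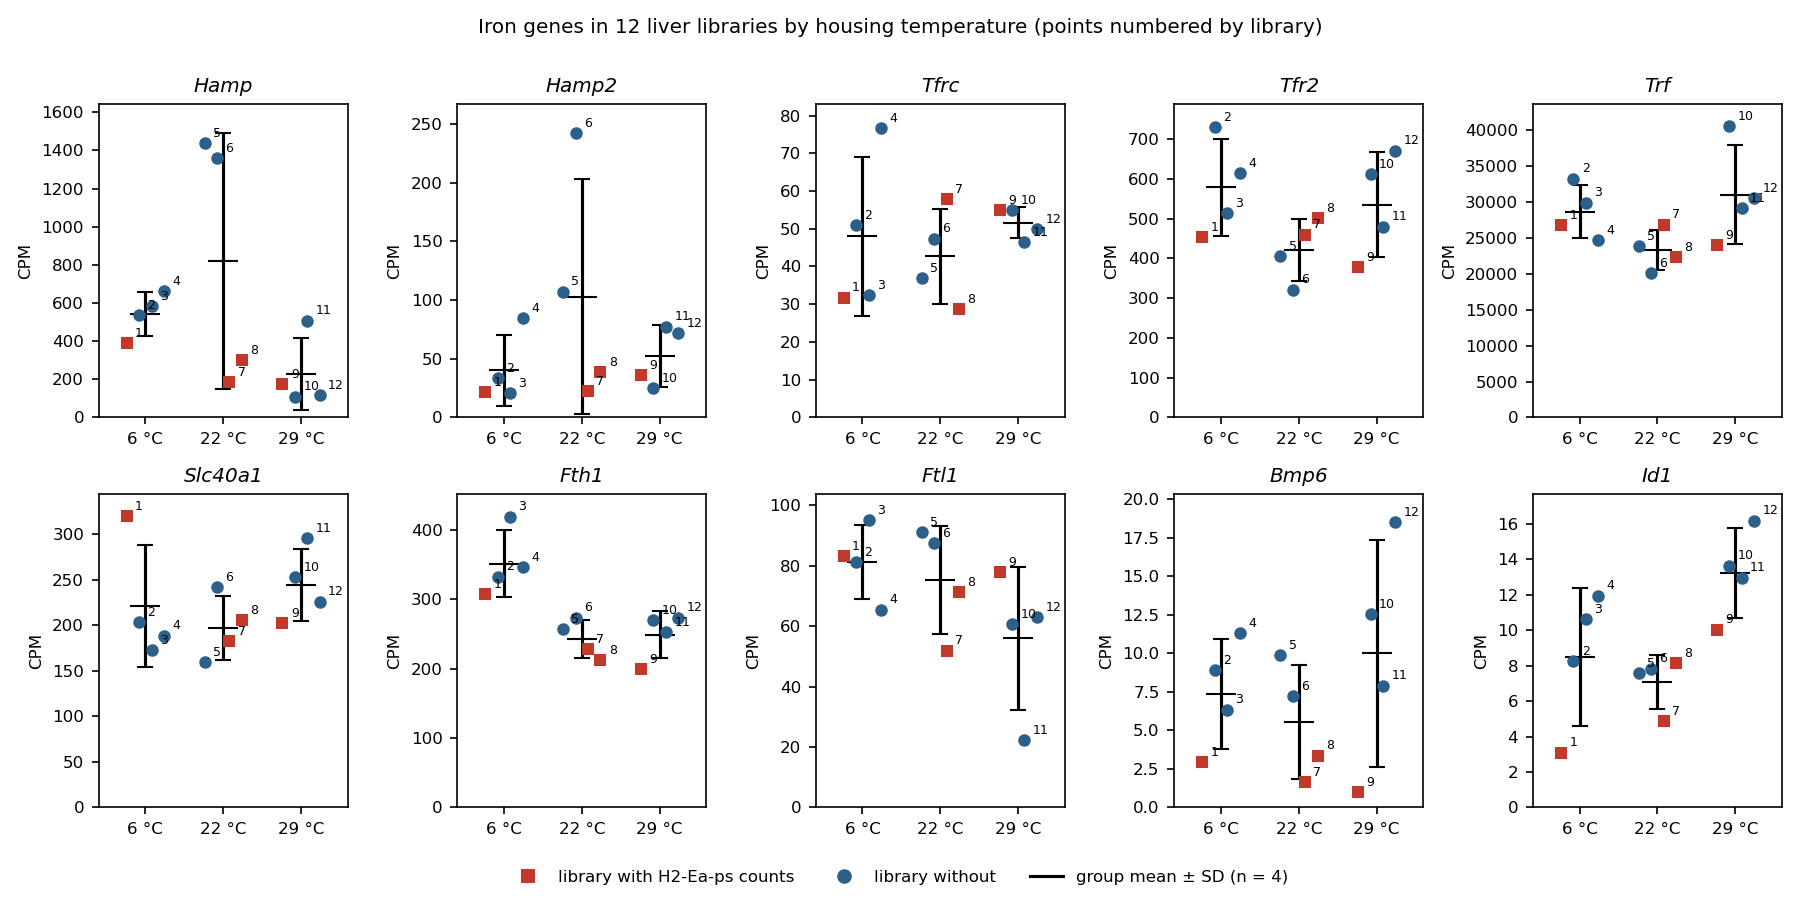
Level of each of the 10 iron genes (CPM, linear axes from 0) in each library, by housing temperature. Points are numbered by library, squares are the 4 libraries with H2-Ea-ps counts, circles the other 8, and lines are the group mean ± SD (n = 4). Hamp is highest in libraries 5 and 6 (1440 and 1361 CPM), and all 29 °C libraries lie below all 6 °C libraries for Fth1.

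By temperature alone, none of the 10 genes passed an adjusted p of 0.05 in edgeR's quasi-likelihood test in any of the 3 comparisons. In the comparison of 29 °C with 6 °C, 0 of 10 passed where 2.53% of all tested genes did, 1 had an unadjusted p below the threshold (Fth1), and DESeq2 and limma voom each called 1 (Fth1). The median log2 fold change of the 10 was 0.11, against 0.00 over all tested genes. For 29 °C against 22 °C, 0 of 10 passed beside 0% of all genes, 2 had an unadjusted p below the threshold (Hamp and Id1), and DESeq2 and voom called 0. The median was 0.29 here, against -0.00 over all tested genes. For 6 °C against 22 °C, 0 of 10 passed beside 0.0333% of all genes, 1 had an unadjusted p below the threshold (Fth1), DESeq2 called it and voom called 0. The 10 genes had a median of 0.21 and all tested genes one of -0.02. The comparisons share groups of libraries, so they are not independent of each other. Over all tested genes, an unadjusted p under 0.05 was found for 19.4% (29 °C against 6 °C), 14.9% (29 °C against 22 °C) and 11.9% (6 °C against 22 °C). DESeq2 called 7.97%, 2.17% and 1.19% and voom 7.40%, 0.287% and 0.0267% of all genes in the same order. With H2-Ea-ps presence as a term edgeR called 12.6%, 3.44% and 0.367%. The counts of every gene list are to be read against these shares.

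Groups that did not overlap were found for 1 of the 10 genes in each comparison. They were Fth1 for 29 °C against 6 °C, where 13.3% of all genes did not overlap, Id1 for 29 °C against 22 °C (7.68% of all genes), and Fth1 for 6 °C against 22 °C (6.33%).

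**Figure D2:**
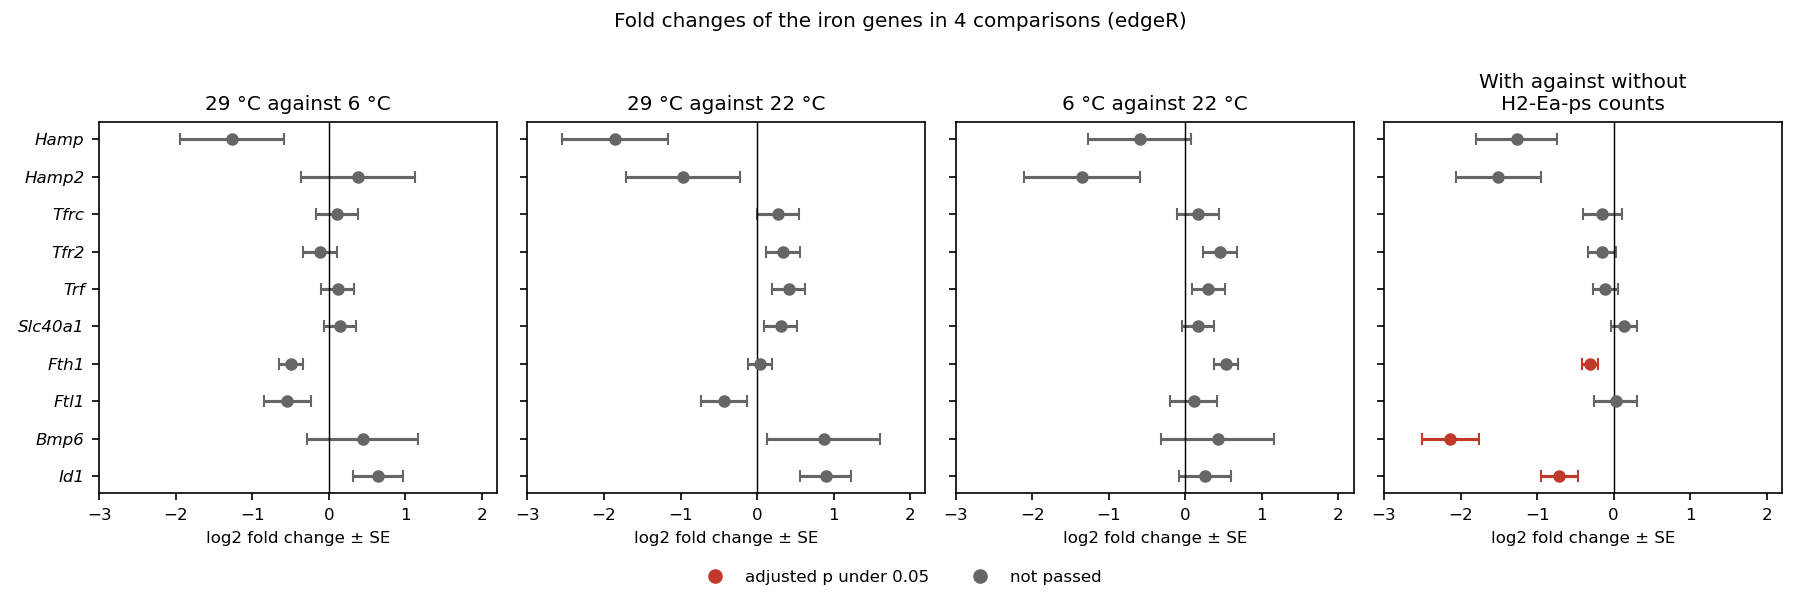
Fitted log2 fold change ± SE of the 10 iron genes in the 3 temperature comparisons and between libraries holding H2-Ea-ps counts and the others (edgeR, 12 libraries). Filled red points passed an adjusted p of 0.05 and grey points did not: Bmp6 (-2.13), Id1 (-0.71) and Fth1 (-0.31) passed, all in the comparison by H2-Ea-ps.

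Bmp6, the ligand that carries the iron signal to hepatocytes, had the largest fold change of the 10 genes between libraries holding H2-Ea-ps counts and the others. It lies on chromosome 13 (chr13:38345107-38500302, plus strand). Its level was 2.95, 8.91, 6.36 and 11.3 CPM in libraries 1 to 4 (6 °C), 9.87, 7.23, 1.66 and 3.36 CPM in libraries 5 to 8 (22 °C), and 1.00, 12.6, 7.90 and 18.5 CPM in libraries 9 to 12 (29 °C). The lowest values were those of libraries 9, 7, 1 and 8, the libraries with H2-Ea-ps counts, and none of them reached the level of any of the other 8. With H2-Ea-ps counts the mean was 2.24 ± 1.10 CPM (SD, n = 4) and without them 10.3 ± 3.90 CPM (n = 8). In a fit with temperature as a term the log2 fold change was -2.13 (SE 0.38, adjusted p = 0.00117). It passed in 21 of 21 other settings, with fold changes from -2.42 to -1.69. Of all tested genes 22.6% passed in this comparison and 9.38% had sets that did not overlap.

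Reads behind Bmp6 were few, at 13 to 273 counts per library. The gene shares 224 bases with Txndc5 on the opposite strand, which had 28083 counts over all libraries against 1236 for Bmp6, and whether the counting used strand is not given in the sources used here. Txndc5 was also lower with H2-Ea-ps counts, by a smaller amount (139.6 against 193.8 CPM, log2 fold change -0.42, adjusted p = 0.0110). Markers of sinusoidal endothelium, the cells that make BMP6, summed to 526 to 611 CPM with and 439 to 754 CPM without H2-Ea-ps counts, 8 of 8 of them detected. The ranges of the sum and of each marker overlapped, but single markers leaned in different directions. Stab2 lay high with these counts (217 to 242 CPM, against 134 to 235). Oit3 (17.8 to 29.7 CPM, against 24.6 to 49.4) and Pecam1 (18.4 to 38.0 CPM, against 33.9 to 64.8) lay low. The part of the markers in the Bmp6 levels was not tested. By temperature, Bmp6 stood at 7.38 ± 3.57 CPM at 6 °C, 5.53 ± 3.72 at 22 °C and 9.99 ± 7.40 at 29 °C (SD, n = 4 each), with fully overlapping groups and no adjusted p under 0.611.

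Id1, a transcriptional regulator induced by BMP and SMAD signalling, lies on chromosome 2 (chr2:152736251-152737410, plus strand). It was measured at 3.10, 8.24, 10.6 and 12.0 CPM at 6 °C, 7.57, 7.84, 4.85 and 8.14 CPM at 22 °C, and 10.03, 13.6, 12.98 and 16.2 CPM at 29 °C. Every 29 °C library lay above every 22 °C library, while 6 °C and 29 °C overlapped. The mean at 29 °C was 13.2 ± 2.53 CPM against 7.10 ± 1.52 at 22 °C, a log2 fold change of 0.90 (SE 0.33) that did not pass (adjusted p = 0.255). With H2-Ea-ps presence as a term over the 12 libraries it did not pass either (0.69, adjusted p = 0.127). In the 8 libraries without H2-Ea-ps counts it passed (0.88, adjusted p = 0.0198), in a fit where 17.1% of all genes did and the 22 °C group is libraries 5 and 6 alone.

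Within each temperature, Id1 was also lowest in a library with H2-Ea-ps counts: library 1 at 6 °C, 7 at 22 °C and 9 at 29 °C. Library 8, which also holds them, was however the highest at 22 °C. With these counts it stood at 6.53 ± 3.13 CPM (n = 4), and without them at 11.1 ± 3.12 CPM (n = 8), and the groups overlapped. The log2 fold change was -0.71 (SE 0.24, adjusted p = 0.0471). The call depended on single libraries: it held in 2 of 12 fits that each left out 1 library (those without library 2 and without library 8), and without library 1 the value was -0.36 (adjusted p = 0.251).

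In the comparison by H2-Ea-ps, 3 of the 10 genes fell in edgeR (Bmp6, Id1 and Fth1), 0 rose and 7 did not pass. Of all tested genes 22.6% passed, made up of 11.4% that were lower and 11.2% that were higher. DESeq2 called 4 of the 10, with Hamp2 the additional gene, beside 26.6% of all genes, and voom called 3 beside 23.0%. Bmp6 alone of the 10 had groups that did not overlap, beside 9.38% of all genes. The median log2 fold change of the 10 genes was -0.23, against 0.03 over all tested genes.

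The wider list of hepcidin control by BMP, SMAD and HFE held 22 genes, of which 21 were tested. Erfe, the erythroid hormone erythroferrone, was not. With H2-Ea-ps counts 5 of the 21 fell (Bmp6, Id1, Hfe, Id2 and Atoh8), 0 rose and 16 did not pass, with a median of -0.19. Of all tested genes 11.4% were lower and 11.2% higher, 22.6% in all. Fold changes were negative for 15 of the 21 and positive for 6. DESeq2 called 7 of the 21 and voom 6, beside 26.6% and 23.0% of all genes. Hfe encodes the membrane protein whose loss causes hereditary haemochromatosis. It stood at 29.3 CPM in library 1, 19.4 in library 7, 22.2 in library 8 and 19.1 in library 9, and at 32.0 to 50.8 CPM in the other 8. All 4 libraries with H2-Ea-ps counts therefore lay below the others (log2 fold change -0.80, SE 0.12, adjusted p = 0.00027), and the difference passed in 21 of 21 other settings. Of all tested genes 9.38% had sets that did not overlap. Atoh8, a BMP-induced transcription factor, fell by 0.77 (adjusted p = 0.0237) and Id2 by 0.41 (adjusted p = 0.0396), and these passed in 16 and 13 of 21 settings. Smad7 leaned the other way and did not pass, at 35.3 to 48.7 CPM with and 24.5 to 47.1 CPM without these counts. Hfe, Atoh8, Id2 and Smad7 were chosen after their values were seen.

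By temperature, 0 of the 21 genes passed in any comparison in edgeR, with 2, 7 and 2 genes at an unadjusted p under 0.05 for 29 °C against 6 °C, 29 °C against 22 °C and 6 °C against 22 °C, beside 19.4%, 14.9% and 11.9% of all genes. DESeq2 and voom each called 1, 0 and 0 genes in the same order, beside 7.97% and 7.40% of all genes in the first comparison. The lowest p belonged to Neo1, neogenin, a partner of hemojuvelin. It was at 32.6, 29.0, 32.3 and 34.6 CPM at 6 °C and at 20.7, 19.7, 24.9 and 19.2 CPM at 29 °C. The 29 °C libraries were all lower, with a log2 fold change of -0.60 (SE 0.15, adjusted p = 0.0527), and the difference passed with H2-Ea-ps presence as a term (adjusted p = 0.0126), where 12.6% of all genes passed. With that term Atoh8 was also lower at 29 °C than at 22 °C (log2 fold change -1.21, adjusted p = 0.0292). Neo1 passed there too, beside 3.44% of all genes. Each passed in 2 of 24 alternative settings, the term included, and in 0 of 12 that left out 1 library. Over these settings Atoh8 ran from -1.39 to -0.60, with a highest adjusted p of 0.680. Its level peaked in libraries 5 (43.5 CPM) and 6 (45.2 CPM). Library 7 (19.5 CPM) lay within the 29 °C range of 12.2 to 25.7 CPM, and library 8 (29.9 CPM) above it.

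More of this list passed in the 8 libraries without H2-Ea-ps counts, where the 22 °C group is libraries 5 and 6 alone. For 29 °C against 22 °C, 7 of the 21 were higher (Tfr2, Id1, Hjv, Smad6, Id3, Tmprss6 and Furin) and 3 were lower (Bmpr2, Atoh8 and Neo1), where 17.1% of all genes passed. Against 22 °C, the 6 °C group had 6 higher genes (the same genes as for 29 °C except Id1) and 0 lower ones, where 6.69% of all genes passed. Smad6, an inhibitor of BMP signalling that was named after its values were seen, had log2 fold changes of 0.93 at 29 °C (adjusted p = 0.0125) and 0.79 at 6 °C (adjusted p = 0.0465). Over the 12 libraries with H2-Ea-ps presence as a term, 0 of the 7 genes that were higher at 29 °C passed, Smad6 among them (0.57, adjusted p = 0.121), and 0 of the 21 passed for 6 °C against 22 °C. Both contrasts share libraries 5 and 6, which stand apart in the summed hepatocyte markers, most of which is Alb, and in Gm26917. The part of these in the differences was not tested. For 29 °C against 6 °C, which does not use them, Neo1 alone of the 21 passed in the 8 libraries (-0.58, adjusted p = 0.0333).

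**Figure D3:**
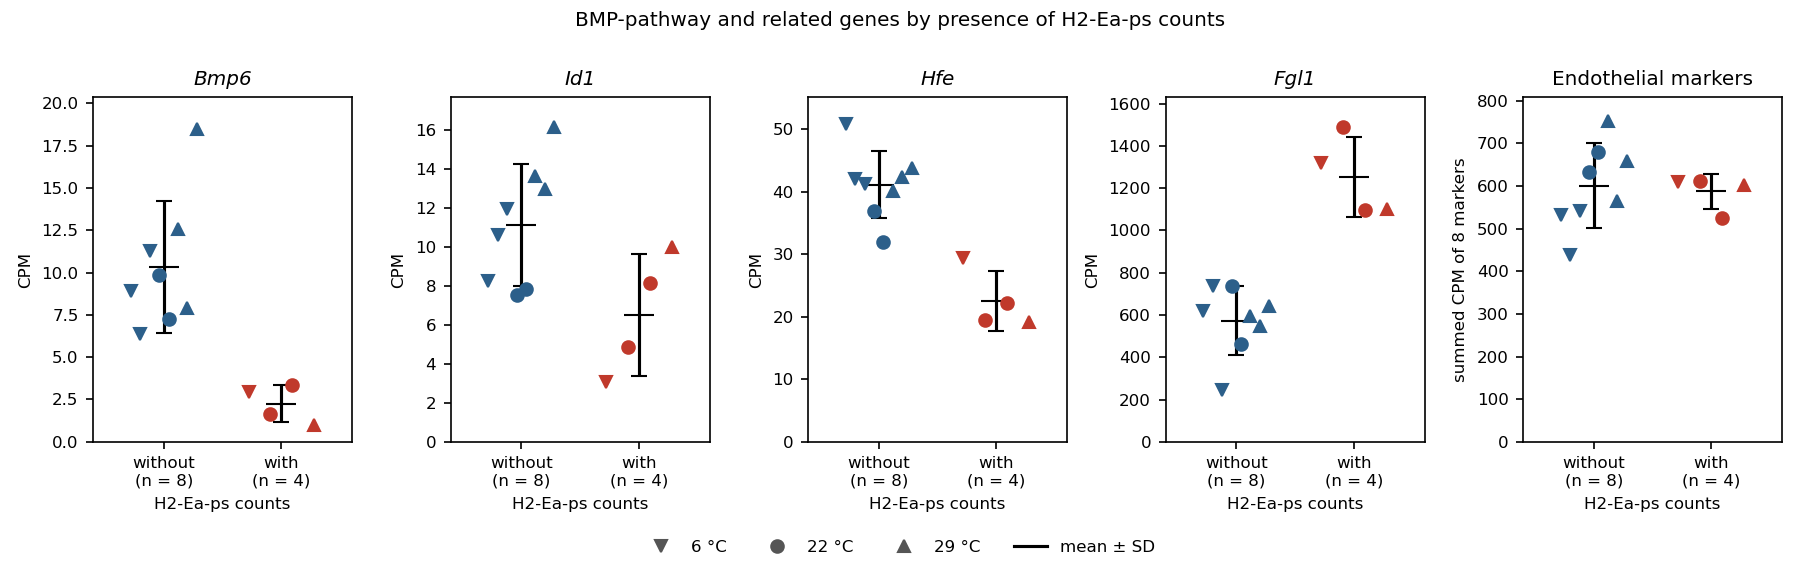
BMP-pathway genes and related values (CPM, linear axes from 0) in the 8 libraries without and the 4 libraries with H2-Ea-ps counts. Point shape gives the housing temperature and lines are mean ± SD. Bmp6, Hfe and Fgl1 do not overlap between the sets, beside 9.38% of all tested genes. The summed endothelial markers overlap, and single markers within the sum lean in different directions.

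Hamp, hepcidin itself (chr7:30942368-30944032, minus strand), was high in a pair of 22 °C libraries and low in most 29 °C libraries. It was at 390, 537, 585 and 661 CPM at 6 °C, 1440, 1361, 185 and 300 CPM at 22 °C, and 173, 110, 508 and 117 CPM at 29 °C. The 6 °C libraries were close to each other, those at 22 °C fell into a high and a low pair, and at 29 °C library 11 stood above the other 3. Group means were 543 ± 114 CPM at 6 °C, 821 ± 671 at 22 °C and 227 ± 190 at 29 °C (SD, n = 4 each).

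Against 6 °C, Hamp at 29 °C was lower by a fitted log2 fold change of -1.26 (SE 0.68, adjusted p = 0.338), which did not pass. A 2-sided exact permutation test on log2(CPM + 1) gave a difference of -1.54 with p = 0.0571, where 4 libraries against 4 cannot go below 0.0286. Without library 11, which also held the intestinal transcripts, the difference was -2.03 and p = 0.0286, the smallest that the exact test can give. In the fits across all genes (edgeR, DESeq2 and voom), Hamp passed in 0 of 24 alternative settings for this comparison, those that left out 1 library included, with a lowest adjusted p of 0.149. Against 22 °C the fitted log2 fold change was -1.86 (SE 0.69, unadjusted p = 0.0211, adjusted p = 0.270) and the exact permutation p was 0.171. For 6 °C against 22 °C the fitted value was -0.60 (SE 0.67, adjusted p = 0.767) and the exact permutation p was 0.857.

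The high pair at 22 °C, libraries 5 and 6, are those with the highest summed hepatocyte markers, most of which is Alb, and the least Gm26917. Without them the fitted log2 fold change of Hamp for 29 °C against 22 °C was -0.10 (adjusted p = 0.971), and for 6 °C against 22 °C it turned from -0.60 to 1.17. The low pair, libraries 7 and 8, hold H2-Ea-ps counts. Over all temperatures Hamp was at 262 ± 103 CPM with (n = 4) and 665 ± 499 CPM without H2-Ea-ps counts (n = 8). That difference did not pass (log2 fold change -1.27, SE 0.53, adjusted p = 0.124). The hepatocyte markers summed to 73776 to 87464 CPM with and 84868 to 184175 CPM without these counts, 7 of 7 detected. Most of each sum was Alb, at a mean of 59604 CPM with and 113460 CPM without. The part of the markers in the hepcidin levels was not tested.

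Hamp2, the second hepcidin gene (chr7:30922372-30924681, minus strand), was at lower levels. It was at 21.6, 33.4, 21.0 and 84.8 CPM at 6 °C, 107, 242, 22.6 and 38.8 CPM at 22 °C, and 35.7, 24.7, 77.2 and 71.7 CPM at 29 °C. Libraries 5 and 6 were highest again, but libraries 4, 11 and 12 stood above the rest of their groups, and all 3 groups overlapped. Means were 40.2 ± 30.3, 103 ± 100 and 52.4 ± 26.0 CPM in the same order, and no comparison by temperature passed, with log2 fold changes of 0.38 (29 °C against 6 °C, adjusted p = 0.833), -0.97 (29 °C against 22 °C, adjusted p = 0.574) and -1.35 (6 °C against 22 °C, adjusted p = 0.497).

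At 29 °C relative to 6 °C the fitted values of the hepcidin genes thus had opposite signs, -1.26 for Hamp and 0.38 for Hamp2, neither of which passed. With H2-Ea-ps counts Hamp2 was at 29.7 ± 8.86 CPM, against 82.8 ± 71.5 without (log2 fold change -1.51, SE 0.56, adjusted p = 0.0864). It passed with DESeq2 (-1.50, adjusted p = 0.0242) and in 3 of 21 other settings in all. The genes are paralogs, and how the authors' counting divided reads that match both is uncertain. The noncoding gene Gm44662, which spans both on the opposite strand, had 62 counts in all against 76586 for Hamp and 9733 for Hamp2.

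The tested genes whose levels followed Hamp most closely over the 12 libraries, by Pearson r of log2(CPM + 1), were Utrn (0.959), Ldah (0.943), Slc17a2 (0.939), Arhgap42 (0.932) and Rfx7 (0.927). Spearman's rho was 0.965, 0.937, 0.881, 0.923 and 0.951 in the same order. In the 8 libraries without H2-Ea-ps counts r was 0.959, 0.966, 0.980, 0.961 and 0.948. Utrn, utrophin, was at 128.8 CPM in library 12 and 181 CPM in library 5. These r were the highest among the 15006 tested genes and are given as a description, with no test. The 12 points share their libraries and differ in depth.

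The interleukin-6 and STAT3 list, the inflammatory route to hepcidin, held 15 tested genes. By temperature 0 passed in edgeR, DESeq2 or voom, with 1, 1 and 0 at an unadjusted p under 0.05, beside 19.4%, 14.9% and 11.9% of all genes. The lowest p belonged to Il6st, the shared receptor subunit gp130, at 431 ± 30.9 CPM at 29 °C against 578 ± 70.3 at 22 °C (a log2 fold change of -0.42, SE 0.16, adjusted p = 0.259). In the 8 libraries without H2-Ea-ps counts 1 of the 15 was higher and 1 lower at 29 °C than at 22 °C, where 17.1% of all genes passed. With H2-Ea-ps counts 2 of the 15 rose, Fgl1 and Socs3, 0 fell and 13 did not pass, with a list median of 0.22, beside the 11.2% of all genes that rose and 11.4% that fell.

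Fgl1, fibrinogen-like 1, a secreted hepatocyte protein, was at 1321, 1490, 1098 and 1104 CPM in libraries 1, 7, 8 and 9 and at 243 to 738 CPM in the other 8, so the sets did not overlap (log2 fold change 1.11, SE 0.24, adjusted p = 0.00486). The same held for 9.38% of all tested genes. Socs3, a feedback inhibitor of STAT3, had a log2 fold change of 0.87 (adjusted p = 0.0449) and passed in 11 of 21 other settings. The acute-phase gene Saa1 was at 421 ± 162 CPM with and 89.6 ± 127 without these counts, and missed the threshold (log2 fold change 3.13, SE 0.98, adjusted p = 0.0514). Its highest values without them were 383 and 146 CPM, in libraries 2 and 3. These 3 genes were chosen after their values were seen. In the same libraries, 6 neutrophil markers summed to 561 to 1618 CPM with and 8.95 to 519 CPM without H2-Ea-ps counts, and their part in these differences was not tested.

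Trf, transferrin, the plasma carrier of iron made by hepatocytes (chr9:103204001-103230444, minus strand), was among the most abundant transcripts. It was at 26796, 33265, 29919 and 24741 CPM at 6 °C, 23846, 20136, 26862 and 22346 CPM at 22 °C, and 23978, 40568, 29136 and 30517 CPM at 29 °C. The lowest values were at 22 °C, in libraries 6 and 8, and all groups overlapped. Means were 28680 ± 3725, 23297 ± 2823 and 31050 ± 6942 CPM. The largest fitted difference, 0.41 for 29 °C against 22 °C (SE 0.21), did not pass (adjusted p = 0.379).

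Tfr2, transferrin receptor 2, the hepatocyte's sensor of iron-loaded transferrin (chr5:137569840-137587481, plus strand), was at 454, 731, 515 and 615 CPM at 6 °C, 405, 322, 460 and 502 CPM at 22 °C, and 378, 612, 480 and 671 CPM at 29 °C. Library 6 was lowest and library 2 highest, and the groups overlapped. Means were 579 ± 121, 422 ± 78.0 and 535 ± 132 CPM, and no temperature comparison passed over the 12 libraries, without or with H2-Ea-ps presence as a term (with it, 0.28 for 29 °C against 22 °C, adjusted p = 0.426, and 0.40 for 6 °C against 22 °C, adjusted p = 0.375). In the 8 libraries without H2-Ea-ps counts Tfr2 was higher than at 22 °C both at 29 °C (log2 fold change 0.69, adjusted p = 0.0323) and at 6 °C (0.76, adjusted p = 0.0396, in a fit where 6.69% of all genes passed). The 22 °C group is then libraries 5 and 6, which are both lower in Tfr2 and higher in Hamp than libraries 7 and 8.

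Tfrc, transferrin receptor 1, the uptake receptor of most cells and most of all of erythroid precursors (chr16:32608920-32632794, plus strand), was at 31.8, 51.0, 32.4 and 76.6 CPM at 6 °C, 36.8, 47.4, 57.9 and 28.7 CPM at 22 °C, and 54.9, 54.9, 46.5 and 50.0 CPM at 29 °C. The 29 °C values lay close together within the spread of the other groups. Means were 48.0 ± 21.1, 42.7 ± 12.7 and 51.6 ± 4.09 CPM, and the fitted log2 fold changes were 0.11 for 29 °C against 6 °C (adjusted p = 0.880), 0.27 for 29 °C against 22 °C (adjusted p = 0.672) and 0.17 for 6 °C against 22 °C (adjusted p = 0.851). Between libraries holding H2-Ea-ps counts and the others none of these receptors nor transferrin passed (Trf -0.11, Tfr2 -0.15 and Tfrc -0.15 on the log2 scale). Globin and other erythroid markers, 8 of 9 of them in the count table, summed to 70.9 to 137 CPM with and 117 to 476 CPM without these counts.

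The list of iron uptake held 13 tested genes. By temperature 0 passed in edgeR, 3, 1 and 3 had an unadjusted p under 0.05 for 29 °C against 6 °C, 29 °C against 22 °C and 6 °C against 22 °C, DESeq2 called 2, 1 and 0, and voom 2, 0 and 0. Over all genes 19.4%, 14.9% and 11.9% had such a p, DESeq2 called 7.97%, 2.17% and 1.19%, and voom 7.40%, 0.287% and 0.0267%. In the 8 libraries without H2-Ea-ps counts 0, 2 and 2 were higher and 1, 0 and 0 lower, beside 9.91%, 17.1% and 6.69% of all genes. Slc39a8, the metal importer ZIP8, had the lowest p over the 12 libraries, for 29 °C against 22 °C. It was at 34.9, 35.8, 32.5 and 37.6 CPM at 6 °C, 36.2, 30.8, 36.8 and 37.7 CPM at 22 °C, and 25.3, 27.2, 26.1 and 26.4 CPM at 29 °C. All 29 °C libraries lay below all the others, with little spread. The log2 fold change against 6 °C was -0.42 (SE 0.11, adjusted p = 0.0630, 0.0250 with H2-Ea-ps presence as a term, and 0.0709 in the 8 libraries). Against 22 °C the adjusted p was 0.164, and log2 fold changes ran from -0.50 to -0.34 over 24 other settings, 1 of which passed. Mcoln1, a lysosomal channel that releases iron, was lower at 29 °C than at 6 °C with that term (-0.51, adjusted p = 0.0283), in the 8 libraries (adjusted p = 0.0351), and not without the term (adjusted p = 0.0854). With H2-Ea-ps counts 1 of the 13 fell, Steap2, a metal reductase (-0.42, adjusted p = 0.0411, passed in 10 of 21 other settings), 0 rose and 12 did not pass. Of all tested genes 11.4% fell and 11.2% rose.

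Fth1, the ferritin heavy chain that oxidises iron for storage (chr19:9980598-9985098, plus strand), was highest in the cold. It was at 307, 333, 419 and 346 CPM at 6 °C, 257, 274, 228 and 212 CPM at 22 °C, and 200, 271, 253 and 274 CPM at 29 °C. Every 6 °C library lay above every library at 22 °C and at 29 °C, and the latter groups overlapped. Means were 351 ± 48.2 CPM at 6 °C, 243 ± 27.7 at 22 °C and 249 ± 34.3 at 29 °C (SD, n = 4 each).

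The log2 fold change of Fth1 for 29 °C against 6 °C was -0.50 (SE 0.16), which missed the threshold in the fit by temperature alone (adjusted p = 0.108). It passed with H2-Ea-ps presence as a term (-0.50, adjusted p = 0.0120), where 12.6% of all genes passed. With the term it passed in each of the 12 fits that left out 1 library, with a highest adjusted p of 0.0481. It passed in the 8 libraries without these counts as well (-0.46, adjusted p = 0.0482, where 9.91% of all genes passed). Over the 12 libraries it passed with DESeq2 (adjusted p = 0.0221, beside 7.97% of all genes) and voom (adjusted p = 0.0459, beside 7.40%). For 6 °C against 22 °C the value was 0.53 (SE 0.16, adjusted p = 0.264, and 0.104 with the term, where 0.367% of all genes passed), and DESeq2 called it (adjusted p = 0.0452). For 29 °C against 22 °C it was 0.04 (SE 0.16, adjusted p = 0.934).

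With H2-Ea-ps counts Fth1 was at 237 ± 48.4 CPM, against 303 ± 58.3 without (log2 fold change -0.31, SE 0.11, adjusted p = 0.0485), and the sets overlapped. This call held in 2 of 12 fits that left out 1 library, those without library 2 and without library 4.

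Ftl1, the ferritin light chain that nucleates the iron core (chr7:45457944-45459884, minus strand), was at 83.1, 81.2, 95.2 and 65.5 CPM at 6 °C, 91.2, 87.4, 51.9 and 71.2 CPM at 22 °C, and 77.9, 60.7, 22.3 and 62.9 CPM at 29 °C. Library 11 was the lowest of all, and the groups overlapped. Means were 81.2 ± 12.2, 75.4 ± 17.9 and 55.96 ± 23.7 CPM. The fitted log2 fold change of -0.54 for 29 °C against 6 °C (SE 0.30) did not pass (adjusted p = 0.353), nor did the other comparisons. Between libraries holding H2-Ea-ps counts and the others it was 0.03 (adjusted p = 0.960).

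Among 6 genes of iron storage and chaperones 5 were tested, Ftmt not, and Fth1 was the gene with the lowest p. By temperature 0 of 5 passed in edgeR, 1 in each comparison had an unadjusted p under 0.05, DESeq2 called 1, 0 and 1, and voom 1, 0 and 0. Over all genes 19.4%, 14.9% and 11.9% had such a p, DESeq2 called 7.97%, 2.17% and 1.19%, and voom 7.40%, 0.287% and 0.0267%. In the 8 libraries without H2-Ea-ps counts 0, 1 and 0 were higher and 1, 0 and 0 lower, beside 9.91%, 17.1% and 6.69% of all genes. Ferritin has many processed copies in the genome, and reads could be shared with them. Of 8 ferritin pseudogenes that were counted, 1 passed the filter on low counts, Fth-ps2, at 0.556 to 1.76 CPM, and it did not pass (a log2 fold change of 0.52 for 29 °C against 6 °C, SE 0.45, adjusted p = 0.572).

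Slc40a1, ferroportin, the iron exporter that hepcidin acts on (chr1:45908068-45926523, minus strand), was at 320, 203, 172 and 189 CPM at 6 °C, 159, 242, 183 and 206 CPM at 22 °C, and 202, 253, 296 and 226 CPM at 29 °C. Library 1 was highest and library 5 lowest, and the groups overlapped. Within the 29 °C group library 11, which held the intestinal transcripts, was highest, and their part in this was not tested. Means were 221 ± 66.9, 197 ± 35.1 and 244 ± 39.9 CPM. Fitted log2 fold changes were 0.14 (29 °C against 6 °C, adjusted p = 0.760), 0.31 (29 °C against 22 °C, adjusted p = 0.512) and 0.16 (6 °C against 22 °C, adjusted p = 0.798), each with an SE of 0.21, and 0.14 (adjusted p = 0.600) by H2-Ea-ps. Ferroportin is a protein of Kupffer cells too, and 10 of 10 Kupffer markers summed to 513 to 945 CPM at 6 °C, 412 to 1107 at 22 °C and 610 to 1352 at 29 °C.

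In the list of iron export, 0 of 6 tested genes passed in any of the 4 comparisons in edgeR over the 12 libraries, beside 22.6% of all genes by H2-Ea-ps. In the 8 libraries without H2-Ea-ps counts 1 of the 6 was higher at 6 °C than at 22 °C, where 6.69% of all genes passed. An unadjusted p under 0.05 was found for 1, 3 and 1 by temperature and 0 by H2-Ea-ps, beside 19.4%, 14.9% and 11.9% of all genes by temperature and 35.2% by H2-Ea-ps. DESeq2 called 1, Slc48a1 for 6 °C against 22 °C, and voom 0. Slc48a1, a haem transporter, was at 36.4, 46.0, 49.5 and 48.8 CPM at 6 °C and 27.8, 29.9, 33.5 and 31.0 CPM at 22 °C. All 6 °C libraries were higher (log2 fold change 0.56, SE 0.14, adjusted p = 0.204). Heph, the intestinal ferroxidase hephaestin, was at 19.0 CPM in library 11, the library with the intestinal transcripts, and at most 2.66 CPM in the other 11. By unadjusted p it was the 1 gene counted for 29 °C against 6 °C and among the 3 for 29 °C against 22 °C. It was chosen after its values were seen.

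Sensing of iron by the proteins that bind the printed elements was followed in 5 genes. By temperature 0 of 5 passed in edgeR, DESeq2 or voom, with 3, 0 and 1 at an unadjusted p under 0.05, beside 19.4%, 14.9% and 11.9% of all genes. Skp1a, a subunit of the ligase that degrades iron regulatory protein 2, had the lowest p (87.7 ± 4.75 CPM at 6 °C against 65.9 ± 6.34 at 22 °C, a log2 fold change of 0.41, SE 0.13, adjusted p = 0.278). In the 8 libraries without H2-Ea-ps counts 1 of the 5 was lower at 29 °C than at 6 °C, beside 9.91% of all genes. There 1 was higher at 6 °C than at 22 °C, beside 6.69%. Aco1, iron regulatory protein 1, was at 220, 270, 278 and 303 CPM at 6 °C, 247, 254, 159 and 164 CPM at 22 °C, and 143, 211, 187 and 210 CPM at 29 °C. At each temperature the lowest values were in the libraries with H2-Ea-ps counts. Beside 22.6% of all genes that passed in this comparison, 1 of the 5 genes did. It was Aco1, which fell by 0.51 with these counts (SE 0.10, adjusted p = 0.00203). With H2-Ea-ps presence as a term it was also lower at 29 °C than at 6 °C (-0.52, adjusted p = 0.00759), which it was not without the term (adjusted p = 0.169). It was chosen after its values were seen.

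Haem synthesis and breakdown, the main use of iron and its recycling, held 11 tested genes. By temperature 0 passed in edgeR, 2, 2 and 0 had an unadjusted p under 0.05, and DESeq2 and voom each called 1, 0 and 0. Over all genes 19.4%, 14.9% and 11.9% had such a p, and DESeq2 and voom called 7.97% and 7.40% in the first comparison. In the 8 libraries without H2-Ea-ps counts 1, 0 and 0 were higher and 0, 1 and 0 lower, beside 9.91%, 17.1% and 6.69% of all genes. Cpox, coproporphyrinogen oxidase, was at 139 ± 34.1 CPM at 29 °C against 87.3 ± 21.0 at 6 °C (a log2 fold change of 0.67, SE 0.21, adjusted p = 0.106). It passed with H2-Ea-ps presence as a term (adjusted p = 0.0302) and in the 8 libraries (adjusted p = 0.0181). Fech, ferrochelatase, was lower with that term (-0.48, adjusted p = 0.0337), which was the 1 of 24 other settings in which it passed. Its adjusted p was 0.250 without the term and 0.107 in the 8 libraries.

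With H2-Ea-ps counts, 4 of the 11 haem genes fell (Alad, Fech, Hmox1 and Hmox2), 1 rose (Alas1) and 6 did not pass, with a median of -0.22. Over all genes 11.4% fell and 11.2% rose. Alad, the second enzyme of the pathway, was at 91.0, 76.2, 85.6 and 88.5 CPM in libraries 1, 7, 8 and 9 and at 108 to 146 CPM in the other 8, without overlap (-0.61, SE 0.11, adjusted p = 0.000927). Of all tested genes 9.38% had sets that did not overlap. Hmox1, the inducible haem oxygenase of macrophages and stressed hepatocytes, was at 31.5 ± 14.04 against 57.9 ± 13.3 CPM (-0.85, adjusted p = 0.00301), and Hmox2 fell by 0.68. Kupffer cell markers summed to 412 to 638 CPM with and 513 to 1352 CPM without these counts, 10 of 10 detected, and their part in the Hmox1 difference was not tested. Fech fell by 0.50 and passed in 20 of 21 other settings. Alas1, the rate-limiting enzyme of hepatic haem synthesis, went the other way, at 550 ± 266 against 323 ± 57.4 CPM (0.77, adjusted p = 0.0336), and it passed in 12 of 21 other settings. All 5 were named because they passed, after their values were seen.

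Mitochondrial iron and iron-sulphur assembly held 11 tested genes. By temperature 0 passed in edgeR, 3, 1 and 5 had an unadjusted p under 0.05, beside 19.4%, 14.9% and 11.9% of all genes, and DESeq2 and voom each called 1, 0 and 0, beside 7.97% and 7.40% of all genes in the first comparison. In the 8 libraries without H2-Ea-ps counts 0, 1 and 1 were higher and 1, 0 and 0 lower, beside 9.91%, 17.1% and 6.69% of all genes. Cisd1, the outer-membrane protein mitoNEET, was at 39.0 ± 12.1 CPM at 29 °C against 73.0 ± 21.4 at 6 °C (a log2 fold change of -0.91, SE 0.25, adjusted p = 0.0665). It passed with H2-Ea-ps presence as a term (adjusted p = 0.00966). With H2-Ea-ps counts 1 of the 11 fell, Isca1, a scaffold protein of iron-sulphur assembly (-0.50, adjusted p = 0.0223, passed in 19 of 21 other settings), 0 rose and 10 did not pass. Of all tested genes 11.4% fell and 11.2% rose.

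**Figure D4:**
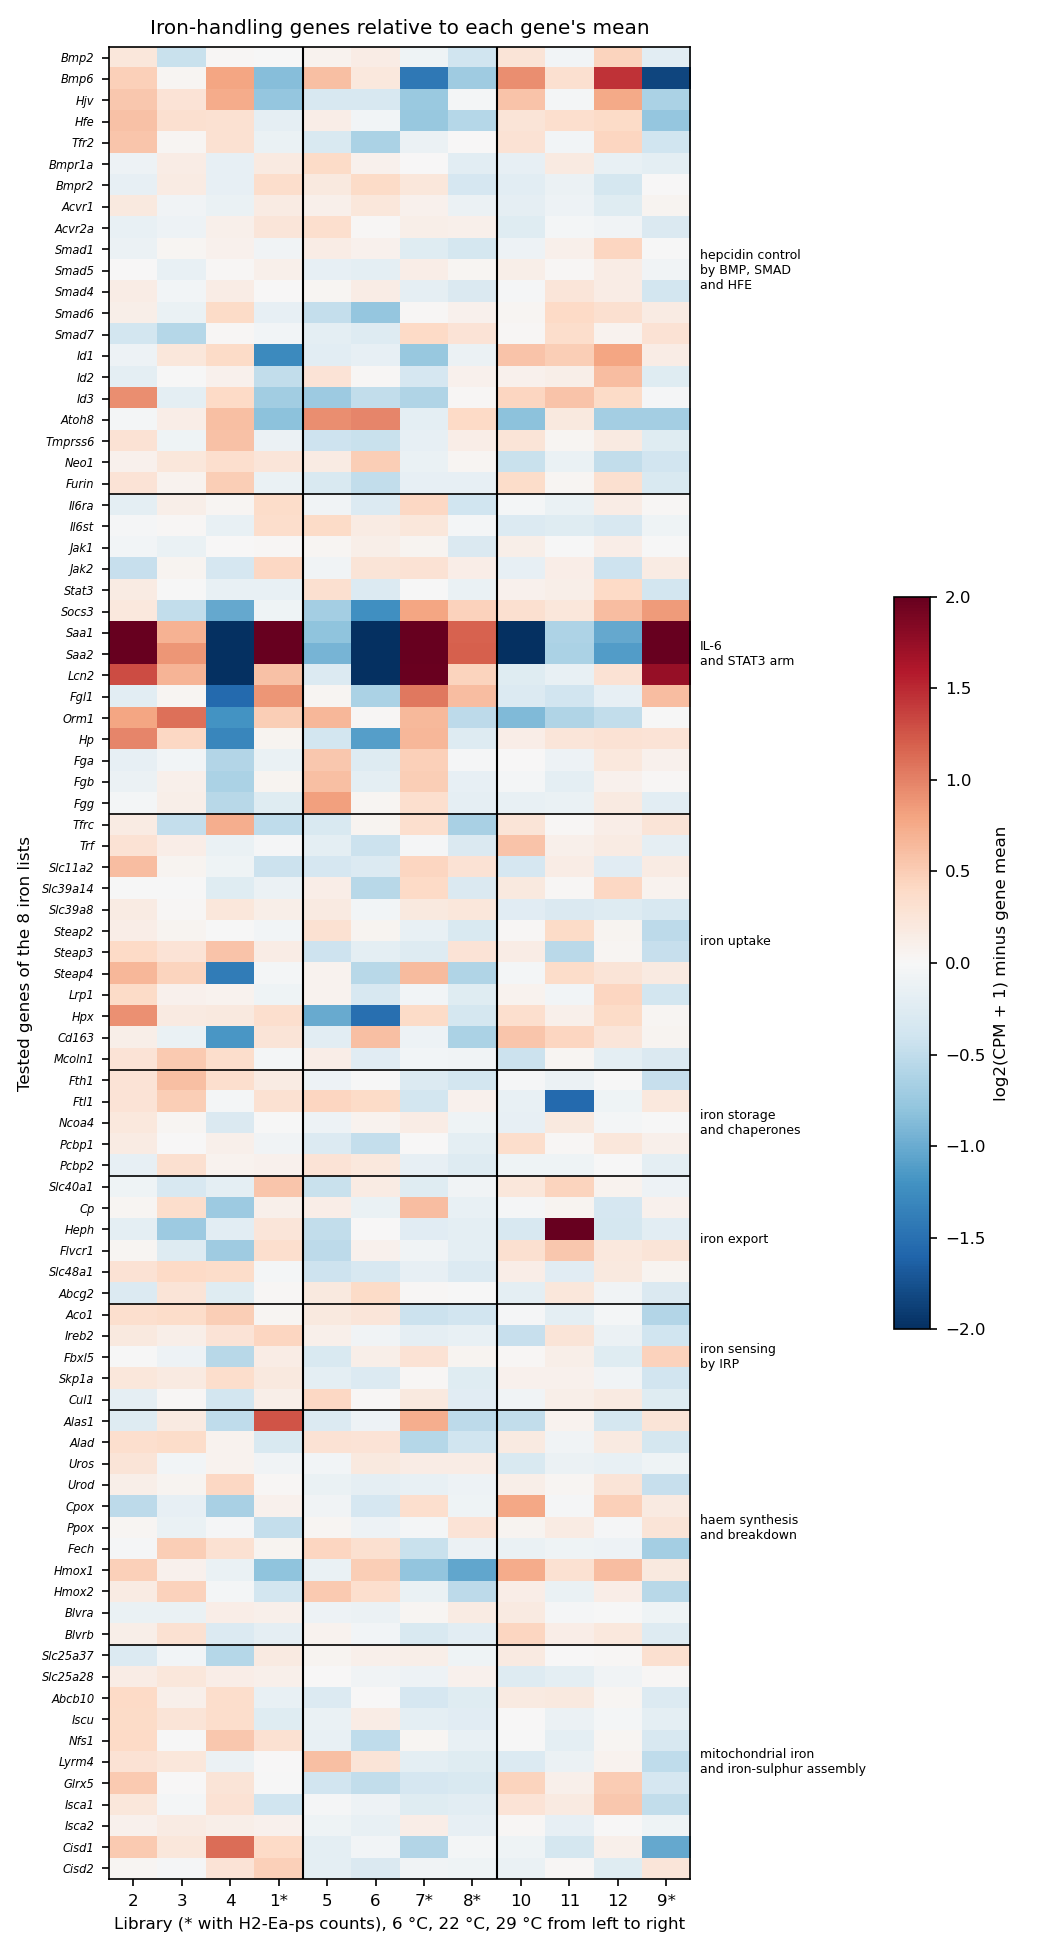
Level of the 86 tested genes of the 8 iron lists in the 12 libraries, as log2(CPM + 1) minus each gene's mean, with the colour scale ending at 2 in either direction. Columns run from 6 °C to 29 °C and asterisks mark the libraries with H2-Ea-ps counts, where Bmp6, Hfe and Alad are low and Fgl1 is high.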

How the data were processed

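The authors deposited whole-number counts per gene for 12 liver libraries made from ribosome-depleted total RNA. STAR 2.6.1a, DESeq2 1.44.0 and GRCm38 are named in the submitters' processing notes. How reads were counted, and whether by strand, is not given in the sources used here. Titles number the libraries 1 to 12. Counts were tested with edgeR 4.0.16 (TMM, filterByExpr, robust quasi-likelihood fit of 3 temperature means over 12 libraries, 9 residual degrees of freedom, Benjamini-Hochberg over 15006 genes, threshold 0.05) in R 4.3.3. CPM use TMM-scaled library sizes. Presence of H2-Ea-ps counts was compared with temperature as a term, and added as a term to the temperature comparisons. DESeq2 1.42.0 and limma 3.58.1 (voom) were alternatives. Hamp was also tested by exact permutation with a pseudocount of 1. The scripts were tested on simulated data. Libraries of a group differed beyond sampling noise in 18 of 18 pairs (chi-square per degree of freedom 13.2 to 145). Intervals on a count of 0 cover counting error only. Identifiers matched GENCODE vM21 for 54587 of 55421 genes.

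Some genes of the lists are not reported here and are not counted. The members and lists were chosen with earlier results of these data known. All 10 iron genes are named. From the other lists the genes that passed by temperature, at most 3 per list, were to be named, or the 1 with the lowest p where none passed, and the 5 genes most like Hamp by Pearson r. Genes named for their H2-Ea-ps difference or under that term fall outside this rule.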

Additional observations from a re-analysis of the deposited data

Results flagged for a closer look

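Within temperature groups of 4 libraries, 5 values of 96 groups checked (32 genes) stood apart from the other 3 libraries of their group, with a gap to the nearest library that was large relative to the range (Dixon's test). Chance gives about 1 in 20 groups. Hamp in library 11 was the highest of the 29 °C group at 508 CPM, and Atoh8 was highest there too at 25.7 CPM. In library 9 of the same group, which holds H2-Ea-ps counts, Fech was lowest at 82.8 CPM, Hfe was lowest at 19.1 CPM and Fgl1 was highest at 1104 CPM.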

How the results depend on the processing

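Bmp6, Hfe, Fgl1, Aco1, Alad, Hmox1 and Hmox2 kept their direction and passed the H2-Ea-ps comparison in all 21 settings tried, while Fth1 passed in 8 and Id1 in 10. For 29 °C against 6 °C, 1 of the 10 iron genes passed with DESeq2, with voom, with H2-Ea-ps presence as a term and in the 8 libraries without these counts, and 1 to 2 with the term and a library left out. Between 29 °C and 22 °C it was 2 in those 8 libraries, and 1 with the term and without library 1. For 6 °C against 22 °C it was 1 with DESeq2 and 1 in the 8 libraries. By H2-Ea-ps, 3 became 4 with DESeq2 (Hamp2 added) and 4 without the low-count filter (Hamp and Hamp2 added, Fth1 lost), 2 without libraries 5 and 6, 1 with upper-quartile factors or a minimum log2 fold change of 1, and 1 to 3 with a library left out. Counts over all genes moved more. For 29 °C against 6 °C, 379 became 1196 with DESeq2, 1110 with voom, 196 with the minimum fold change, 1884 with the term, 1504 in the 8 libraries, 698 without libraries 5 and 6, and 41 to 439 with a library left out (lowest without library 10, and at most 211 without any of libraries 3, 4, 9, 10, 11 and 12). Between 29 °C and 22 °C, 0 became 15 without the low-count filter, 325 with DESeq2, 43 with voom, 516 with the term, 2594 in the 8 libraries, and 0 to 78 with a library left out (78 without library 9 and 3 without library 7). For 6 °C against 22 °C, 5 became 178, 55 and 1015 with DESeq2, the term and the 8 libraries, 3 without libraries 5 and 6 or in a fit of the compared libraries alone, and 3 to 7 with a library left out. By H2-Ea-ps, 3398 became 1312 with the minimum fold change and 1998 without libraries 5 and 6.

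Signs turned only in values that had not passed, all of them in the 10 iron genes. With the term they were Fth1 for 29 °C against 22 °C (-0.043) and Id1 for 6 °C against 22 °C (-0.0099). In the 8 libraries they were Tfrc for 29 °C against 6 °C (-0.074), Fth1 for 29 °C against 22 °C (-0.0011), and Slc40a1 (-0.10) and Ftl1 (-0.16) for 6 °C against 22 °C. Without libraries 5 and 6 they were Hamp2 for 29 °C against 22 °C (0.77), and Hamp (1.17) and Hamp2 (0.40) for 6 °C against 22 °C. With voom it was Ftl1 by H2-Ea-ps (-0.13). With a library left out, values for 29 °C against 6 °C ran from -0.049 to 0.43 (Tfrc), -0.24 to 0.024 (Tfr2), -0.040 to 0.22 (Trf) and -0.029 to 0.82 (Bmp6), and Fth1 for 29 °C against 22 °C from -0.021 to 0.13. For 6 °C against 22 °C they ran from -0.070 to 0.27 (Slc40a1), -0.16 to 0.35 (Tfrc) and -0.035 to 0.21 (Ftl1). By H2-Ea-ps they ran from -0.36 to 0.078 (Tfrc), -0.17 to 0.32 (Slc40a1), -0.28 to 0.18 (Ftl1), -0.30 to 0.059 (Tfr2) and -0.20 to 0.041 (Trf). In the exact permutation test of Hamp the difference ran from -2.03 to -1.29 for 29 °C against 6 °C (past the threshold without library 11) and from -0.65 to 0.34 for 6 °C against 22 °C. The causes were not tested. The fits without libraries 5 and 6, and the term with a library left out, were chosen after seeing the data. No paired analysis was possible because the groups compared share no library numbers. Bmp6 is limited by depth, at 13 counts in library 9.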
